A study of Mus musculus with 8 samples.

Results

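The genes described here encode 8 transcription factors of the osteoblast lineage: the runt-domain factors Runx2, Runx1 and Runx3, their shared partner Cbfb, the zinc-finger factor Sp7 (Osterix) and the distal-less homeodomain factors Dlx3, Dlx5 and Dlx6. They were taken by symbol as a family of related factors. All 8 were found among the 51822 gene symbols used, and all 8 were among the 12514 genes tested, those that reached 1 RPKM in 2 or more libraries. RPKM is a read number normalized to gene length and to library depth.

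Mouse osteoblastic cells were cultured for 7 or 14 days in α-MEM that held serum, ascorbic acid, dexamethasone at 10 nmol·L−1 and β-glycerophosphate at 10 mmol·L−1. Control cells received the vehicle DMSO and treated cells received locamidazole (LAMZ), an aminoindazole derivative, at 1 μmol·L−1, and every group shared the medium. Each of the 4 groups (day 7 control, day 7 LAMZ, day 14 control and day 14 LAMZ) had 2 libraries. The sample labels name the cells MC3T3-E1, an osteoblastic line from mouse calvaria, whereas the series title and the methods name calvarial cells. The labels do not say whether 2 libraries of a group came from separate cultures, so p values measure only the spread between these libraries, which may be technical.

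Osteoblasts arise from mesenchymal progenitors that first switch on Runx2, without which bone does not form, and then Sp7, which acts downstream of Runx2 in the committed preosteoblast. Runx proteins bind DNA through the runt domain, and Cbfb binds that domain without touching DNA and stabilizes the complex. Dlx3 and Dlx5 are homeodomain proteins of developing bone, tooth and skin that bind regulatory elements of Runx2, Sp7 and bone matrix genes, and Dlx6 lies beside Dlx5 in the genome and shares much of its expression. Runx1 and Runx3 are best known from blood cells and are also expressed in cartilage and bone.

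The genes lie at separate loci except for Dlx5 and Dlx6, and each is annotated as protein coding. In GRCm38 with the GENCODE M21 annotation, Runx2 is at chr17:44495987-44814797 on the minus strand, Runx1 at chr16:92601466-92826149 on the minus strand, Runx3 at chr4:135120652-135177990 on the plus strand and Cbfb at chr8:105170674-105217989 on the plus strand. Sp7 is at chr15:102356606-102367182 on the minus strand and Dlx3 at chr11:95120119-95125296 on the plus strand. Dlx5, at chr6:6877805-6882085 on the minus strand, and Dlx6, at chr6:6863334-6868568 on the plus strand, are neighbours on opposite strands.

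RefSeq promoters, from 250 bases before to 50 bases after a transcript start in GRCm38.p6, were read for Runx1 and Runx3 (2 promoters each), Runx2 and Cbfb; the windows of Sp7, Dlx3, Dlx5 and Dlx6 were not analysed here. The letters searched on both strands were TGTGGT, which is the core that Runx proteins bind and reads ACCACA on the other strand, TAATTA, a homeodomain core, and GGGCGG, an Sp family core. The Runx core occurs in 16.8% of the 32851 promoters given, TAATTA in 5.29% and GGGCGG in 35.7%. One promoter of each Runx gene held ACCACA at 2 places with 2 bases between them, an arrangement that was found, on either strand, in 7 of the 32851 promoters (0.0213%). These 7 belong to Runx1, Runx2, Runx3, Gm16225, which lies on the opposite strand beside Runx3 and shares its pair, Gm15462, Gm12236 and Olfr24. The pair was picked out after the promoters had been read. The windows below are shown because the 3 Runx genes carry them in common while their levels moved differently, and capitals mark the Runx core. The 3 windows are, in order, at chr17:44814583-44814612 (minus strand), chr16:92826025-92826054 (minus strand) and chr4:135120503-135120532 (plus strand), and share an unbroken run of 18 bases.
Runx2: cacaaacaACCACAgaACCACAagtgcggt
Runx1: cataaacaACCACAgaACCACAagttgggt
Runx3: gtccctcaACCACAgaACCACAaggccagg

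Relative to the RefSeq start, the pair begins at position 24 in Runx2, at 29 in Runx1 and at −134 in Runx3. The whole stretch before the start is printed for Runx3 (chr4:135120395-135120644, plus strand), whose level rose with LAMZ at both days, and for Cbfb (chr8:105170424-105170673, plus strand), whose level did not rise. Capitals mark the Runx core in Runx3 and the Sp core in Cbfb.
Runx3: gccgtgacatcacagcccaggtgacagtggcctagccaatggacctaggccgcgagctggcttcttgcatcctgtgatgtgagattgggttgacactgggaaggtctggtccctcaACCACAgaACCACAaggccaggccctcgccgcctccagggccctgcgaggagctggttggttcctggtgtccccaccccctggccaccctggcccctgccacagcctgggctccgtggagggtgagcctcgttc
Cbfb: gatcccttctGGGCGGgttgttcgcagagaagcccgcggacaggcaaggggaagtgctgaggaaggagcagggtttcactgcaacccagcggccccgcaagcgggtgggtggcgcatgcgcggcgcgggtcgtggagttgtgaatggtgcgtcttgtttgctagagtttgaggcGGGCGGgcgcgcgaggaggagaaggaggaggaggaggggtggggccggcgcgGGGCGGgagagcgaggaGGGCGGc

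The Cbfb promoter held GGGCGG at 4 places and no Runx core. The second Runx3 promoter held GGGCGG at 3 places and no Runx core, and the second Runx1 promoter held none of the 3 motifs. TAATTA was in none of the 6 promoters. These are matches of letters, and the files give 1 value for each gene, so the use of one promoter or the other was not measured.

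The libraries held from 3462688 to 5835063 mapped reads, recovered as the number at which low RPKM values become whole reads. All 8 osteoblast markers fixed for the check, among them Col1a1, Alpl and Ibsp, were above 0 in every library. Of 17 macrophage markers matched by symbol, none was at 0 in any control library, and their summed RPKM was 472 to 617 in day 7 controls and 1162 to 1193 in day 14 controls, against 8.82 to 10.9 in the 4 LAMZ libraries, where C1qa, C1qb, C1qc, Tyrobp and Laptm5 were at 0. A level in RNA from a whole culture cannot tell fewer cells of a type from less RNA in each cell, and this holds for every result here. Over all genes tested, the median difference between LAMZ and control was −0.08 at day 7 and −0.15 at day 14 on the log2(RPKM + 1) scale, and rescaling each library to the same sum moved these medians to −0.31 and −0.43, so changes are read against them. The gene with the highest mean RPKM held 18.1% to 33.7% of the summed RPKM of a library. Rescaling to the same sum therefore depends in part on that gene.

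At day 7, the 2 factors that head the osteoblast programme and the Dlx factors were expressed at about 2 to 3 times the control level in LAMZ-treated cells. By limma on log2(RPKM + 1), with Benjamini-Hochberg adjustment over all 12514 genes and a threshold of 0.05, 6 of the 8 genes rose: Runx2, Runx3, Sp7, Dlx3, Dlx5 and Dlx6. Runx1 and Cbfb did not pass the test. Of all genes tested, 12.8% passed in either direction and 4.35% rose.

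Runx2, the master regulator of the lineage, had an RPKM of 7.89 and 9.83 in the day 7 control libraries and of 17.6 and 18.7 in the day 7 LAMZ libraries. The groups did not overlap, and their means were 8.86 ± 1.37 and 18.1 ± 0.736 (SD, n = 2 each), a ratio of 2.05. The difference was 0.96 on the log2(RPKM + 1) scale (SE 0.14, limma adjusted p = 0.00475).

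Sp7, the zinc-finger factor that follows Runx2, was the most abundant of the 8 genes in this comparison. Control cells had an RPKM of 17.7 and 26.4, and cells given LAMZ had 60.4 and 62.2. The groups did not overlap, and the controls were farther apart than the LAMZ libraries. The means were 22.1 ± 6.17 and 61.3 ± 1.22 (SD, n = 2 each), 2.78 times higher with LAMZ. The log2 difference of 1.46 (SE 0.19, limma adjusted p = 0.00257) had the greatest size among the 8 genes at this day. This scale, log2(RPKM + 1), understates the change of low genes, and by ratio of the means Runx3 was slightly higher, at 2.81.

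The Dlx genes moved in the same direction at day 7. Dlx5 had an RPKM of 4.47 and 5.88 in control cells and of 15.3 and 12.5 in LAMZ-treated cells. Dlx3 had 2.34 and 3.77 against 8.18 and 8.54, and Dlx6 had 1.01 and 0.729 against 2.37 and 2.34. In each of the 3 genes the LAMZ libraries lay above the control libraries, with ratios of the means of 2.69, 2.74 and 2.72. The log2 differences were 1.28 for Dlx5 (SE 0.18, limma adjusted p = 0.00351), 1.23 for Dlx3 (SE 0.18, limma adjusted p = 0.00506) and 0.85 for Dlx6 (SE 0.16, limma adjusted p = 0.0128).

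The value of Dlx6 rested on few reads. The 2 control libraries held 9 reads (95% Poisson interval 4.12 to 17.1) and 6 reads (2.20 to 13.1), and the LAMZ libraries held 24 (15.4 to 35.7) and 29 (19.4 to 41.6). These intervals cover counting error only. Without day 7 LAMZ replicate 1 or replicate 2, the call for Dlx6 was lost at log2 differences of 0.84 and 0.86 (limma adjusted p = 0.0873 and 0.0735), while the other 5 calls of day 7 held without any 1 library. The call for Dlx6 was also lost with only the 4 libraries compared (0.0606).

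Among the other runt-domain genes, Runx3 had an RPKM of 1.11 and 1.44 in day 7 control cells and of 3.70 and 3.49 in LAMZ-treated cells. The groups did not overlap and the ratio of the means was 2.81. The log2 difference was 1.02 (SE 0.13, limma adjusted p = 0.00241), although the control libraries held only 21 and 25 reads of this gene.

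Runx1 had 2.78 and 2.93 in day 7 control cells and 4.12 and 4.43 in LAMZ-treated cells. The LAMZ libraries lay above the controls at 1.498 times their mean, and the log2 difference of 0.45 (SE 0.12) did not pass the test (limma adjusted p = 0.0511). When libraries were centred on their median or quantile normalized it passed, at 0.57 and 0.56 (limma adjusted p = 0.0250 and 0.0263), and when they were rescaled to the same sum it was 0.21.

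Cbfb, the partner of all 3 Runx proteins, went the other way. Its RPKM was 22.9 and 18.9 in control cells and 17.9 and 16.6 in LAMZ-treated cells, both below the controls, with a log2 difference of −0.26 (SE 0.16) that did not pass the test (limma adjusted p = 0.350). Rescaled to the same sum, it was −0.55 and passed as lower (limma adjusted p = 0.0396). So 7 of the 8 genes had both LAMZ libraries above both controls at day 7, an order found for 20.4% of all genes tested, and Cbfb had both below, as had 35.9% of all genes.

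**Figure D1:**
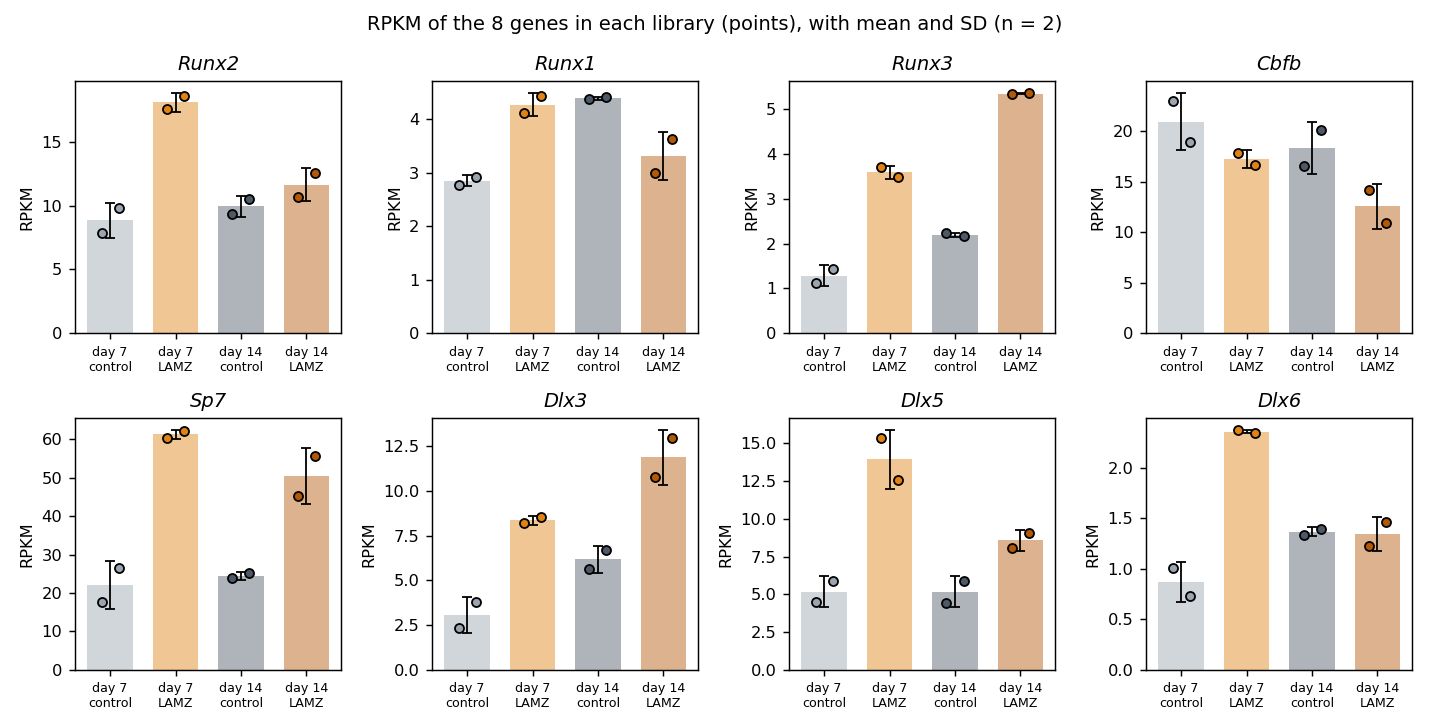
RPKM (vertical axis, from 0 in each panel) of the 8 genes in each library (points), with the mean of each group as a bar and its SD as an error bar (n = 2). Runx2, Sp7, Dlx5 and Dlx6 are highest in day 7 LAMZ-treated cells, Runx3 and Dlx3 in day 14 LAMZ-treated cells, and Cbfb is lowest in day 14 LAMZ-treated cells.

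At day 14, Sp7, Runx3, Dlx3 and Dlx5 were still higher in LAMZ-treated cells, and Runx2, Runx1, Cbfb and Dlx6 did not pass the test. Of all genes tested, 23% passed at day 14 and 6.96% rose. At an unadjusted p under 0.05, 4 of the 8 genes were higher and 2, Runx1 and Cbfb, were lower. That threshold was passed, in either direction, by 4595 of the 12514 genes tested.

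Sp7 had an RPKM of 23.8 and 25.1 in day 14 control cells and of 45.3 and 55.6 in LAMZ-treated cells. The LAMZ libraries lay above the controls, at 2.06 times their mean (50.4 ± 7.32 against 24.4 ± 0.950, SD, n = 2 each). The log2 difference was 1.01 (SE 0.19, limma adjusted p = 0.00722).

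Runx3 had close replicates at day 14, with 2.23 and 2.17 in control cells and 5.35 and 5.36 in LAMZ-treated cells, or 60 and 49 reads against 156 and 131. Its mean was 2.43 times higher with LAMZ, and the log2 difference of 0.99 (SE 0.13, limma adjusted p = 0.00148) was the only 1 of the 4 calls of day 14 that held without any 1 library.

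Dlx3 had 5.64 and 6.70 in day 14 control cells and 10.8 and 12.96 in LAMZ-treated cells, which did not overlap. Dlx5 had 4.45 and 5.91 against 8.07 and 9.07, again without overlap. The log2 differences were 0.84 for Dlx3 (SE 0.18, limma adjusted p = 0.0144) and 0.64 for Dlx5 (SE 0.18, limma adjusted p = 0.0344).

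Single libraries decided several of these calls. Without day 14 LAMZ replicate 2, the limma adjusted p was 0.0558 for Sp7, 0.0954 for Dlx3 and 0.163 for Dlx5, at log2 differences of 0.86, 0.72 and 0.56. Without day 14 control replicate 1, it was 0.0812 for Dlx3 and 0.161 for Dlx5, and without day 14 LAMZ replicate 1, it was 0.0885 for Dlx5. The call of Dlx5 was also lost with no filter on low values (0.0882) and with only the 4 libraries compared (0.0513). Each fit that leaves 1 library in a group assumes that it varies like the libraries of the other groups.

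Runx2 had 9.40 and 10.6 in day 14 control cells and 10.7 and 12.6 in LAMZ-treated cells. The LAMZ libraries lay just above the controls, and the difference of 0.20 on the log2 scale (95% interval −0.12 to 0.53, limma adjusted p = 0.342) did not pass the test and turned to −0.13 when each library was rescaled to the same sum. Dlx6 had 1.33 and 1.40 in control cells and 1.23 and 1.47 in LAMZ-treated cells, which overlapped, with 15 to 17 reads in each library. Its log2 difference was −0.01 (95% interval −0.38 to 0.35, limma adjusted p = 0.965), and it turned positive when libraries were centred on the median (0.18) or quantile normalized (0.22).

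Runx1 had 4.38 and 4.41 in day 14 control cells and 3.001 and 3.64 in LAMZ-treated cells, so both LAMZ libraries lay below the controls. Its log2 difference was −0.33 (SE 0.12, limma adjusted p = 0.0977). Cbfb had 16.5 and 20.1 against 14.1 and 10.9, also below the controls, with a log2 difference of −0.52 (SE 0.16, limma adjusted p = 0.0569). Neither passed the test as fitted, and both passed, as lower, when each library was rescaled to the same sum (−0.62 for Runx1 and −0.86 for Cbfb, limma adjusted p = 0.00692 and 0.00451), a setting under which Dlx3 and Dlx5 did not pass (0.52 and 0.33, limma adjusted p = 0.065 and 0.197). With only genes of a mean RPKM of at least 5 tested, Cbfb passed as well (limma adjusted p = 0.0388). Both LAMZ libraries were thus above both controls for 5 of the 8 genes, against 20.1% of all genes at day 14, and below them for 2, against 44.2%.

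As a mean over both days, 6 genes rose with LAMZ (Runx2, Runx3, Sp7, Dlx3, Dlx5 and Dlx6), Cbfb fell, and Runx1 did not pass the test, while 29.5% of all genes passed, 9.12% as higher and 20.3% as lower. On the log2(RPKM + 1) scale, which understates the change of low genes, Sp7 had the greatest mean difference, 1.23 (SE 0.13, limma adjusted p = 0.000406). It was followed by Dlx3 at 1.04, Runx3 at 1.00 and Dlx5 at 0.96. By ratio of the means, Runx3 (2.81 at day 7 and 2.43 at day 14) was above Sp7 (2.78 and 2.06). The decrease of Cbfb was −0.39 (SE 0.12, limma adjusted p = 0.0389), and this call was lost in 5 of the 8 fits that left out 1 library, with adjusted p up to 0.121. The rise of Dlx6, 0.42 (limma adjusted p = 0.0261), was lost in 7 of those 8 fits, with adjusted p up to 0.0897. Rescaling to the same sum ended the calls of Runx2 (0.27, limma adjusted p = 0.0673) and Dlx6 (0.21, limma adjusted p = 0.146). The call of Cbfb was also lost with median centring (−0.24, limma adjusted p = 0.123), quantile normalization (−0.29, limma adjusted p = 0.0602), no filter on low values (0.0888) and no mean-variance trend (0.0535), and Dlx6 was lost with no filter (0.0732).

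**Figure D2:**
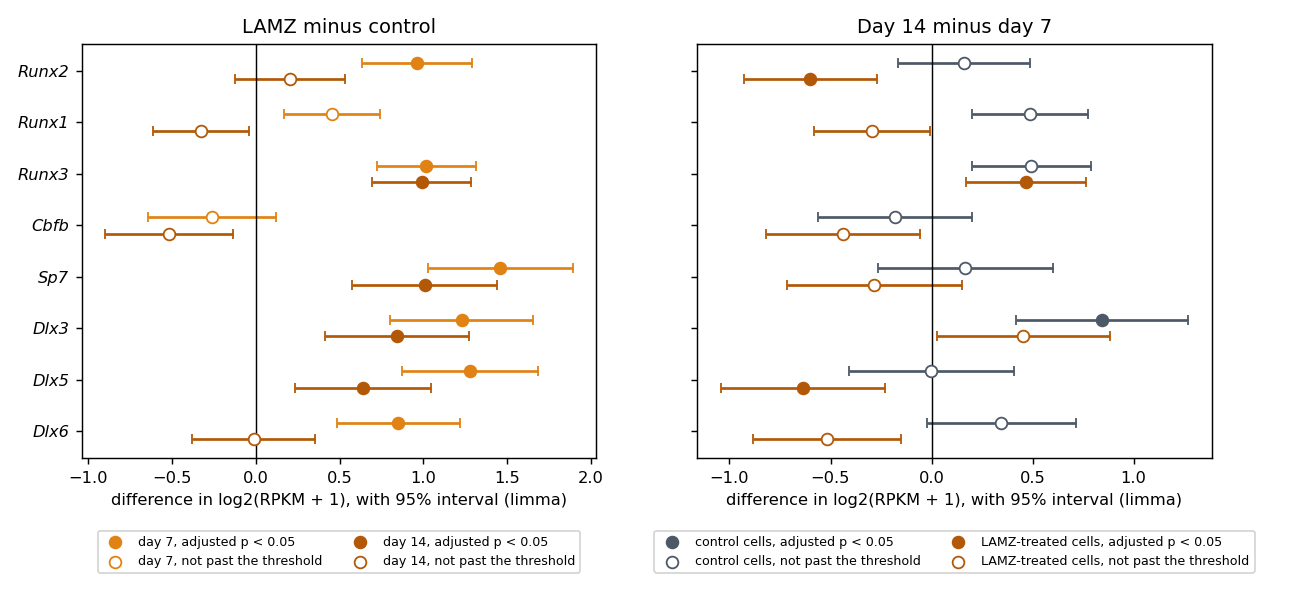
Differences in log2(RPKM + 1) with their 95% intervals from limma (horizontal axis) for each gene (vertical axis), LAMZ minus control on the left and day 14 minus day 7 on the right. Filled points passed an adjusted p of 0.05 and open points did not. With LAMZ, the 6 filled points of day 7 run from 0.85 for Dlx6 to 1.46 for Sp7.

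The genes were then followed over time. These comparisons share libraries with those above, since each group enters both. From day 7 to day 14 in control cells, Dlx3 was the only 1 of the 8 genes that rose, from 3.05 ± 1.01 to 6.17 ± 0.749 RPKM (SD, n = 2 each), a log2 difference of 0.84 (SE 0.18, limma adjusted p = 0.0457), where 4.86% of all genes passed. The day 14 libraries of Dlx3 lay above those of day 7, but the call was lost in 7 of the 8 fits that left out 1 library, with adjusted p from 0.0733 to 0.163. Runx1 and Runx3 lay above their day 7 control values as well, with log2 differences of 0.49 each (limma adjusted p = 0.0681 and 0.0711), and neither passed except after rescaling to the same sum (0.70 and 0.68, limma adjusted p = 0.0186 and 0.0244). Both day 14 control libraries were above both of day 7 for 4 of the 8 genes (Runx1, Runx3, Dlx3 and Dlx6), an order found for 21% of all genes. Runx2, Sp7, Cbfb and Dlx5 overlapped between the 2 days, as Dlx5 shows with a mean of 5.18 RPKM at both.

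In LAMZ-treated cells, Runx2 and Dlx5 fell from day 7 to day 14 and Runx3 rose, where 14.4% of all genes passed. Runx2 went from 18.1 to 11.7 RPKM (log2 difference −0.60, SE 0.14, limma adjusted p = 0.0285) and Dlx5 from 13.9 to 8.57 (−0.64, SE 0.18, limma adjusted p = 0.0486). Runx3 went from 3.60 to 5.35 (0.47, SE 0.13, limma adjusted p = 0.0475). In all 3 genes the libraries of the 2 days did not overlap. All 3 calls were lost without day 7 LAMZ replicate 1 or 2 or without day 14 LAMZ replicate 1 or 2, with adjusted p from 0.0746 to 0.227, and that of Runx3 was also lost without day 14 control replicate 1 (adjusted p = 0.0649) or 2 (0.0645). The calls of Runx2 and Dlx5 were lost as well after rescaling to the same sum (−0.41 and −0.45), with median centring (−0.50 and −0.54) and with quantile normalization (−0.52 and −0.54). Both libraries of day 14 were below both of day 7 for 6 of the 8 genes (all but Runx3 and Dlx3), an order found for 41.4% of all genes, and above them for the other 2, as for 21.4% of all genes.

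The test of the difference itself, that is, whether the LAMZ effect changed between the days, gave no call for any of the 8 genes by limma at an adjusted p under 0.05, where 0.623% of all genes passed. At an unadjusted p under 0.05 there were 4, each with the smaller or opposite LAMZ effect at day 14: Runx1 (−0.78, limma adjusted p = 0.0990), Dlx6 (−0.86, adjusted p = 0.133), Runx2 (−0.76, adjusted p = 0.135) and Dlx5 (−0.64, adjusted p = 0.265). That unadjusted threshold was passed by 2061 of the 12514 genes tested. The LAMZ effect on Runx3 differed by −0.03 between the days (95% interval −0.44 to 0.39, limma adjusted p = 0.960). A LAMZ effect that passed at day 7 and not at day 14 was therefore not shown to differ for Runx2 or Dlx6.

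RPKM is a level per length, so the genes can be ranked. Sp7 had the highest mean in all 4 groups and Dlx6 the lowest, with means over the 8 libraries of 39.6 and 1.48 RPKM. Sp7 was above 94.1% and Dlx6 above 18.4% of the genes tested. In day 7 control cells the order was Sp7, Cbfb, Runx2, Dlx5, Dlx3, Runx1, Runx3 and Dlx6, and the libraries overlapped between Sp7 and Cbfb and between Dlx3 and Runx1. In day 14 LAMZ-treated cells, Cbfb (12.5), Dlx3 (11.9) and Runx2 (11.7) overlapped, and Runx3 (5.35) was above Runx1 (3.32), the reverse of the order in the other 3 groups.

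The ratio of Sp7 to Runx2 was 2.24 and 2.69 in the day 7 control libraries, 3.43 and 3.33 with LAMZ at day 7, 2.53 and 2.38 in the day 14 controls and 4.22 and 4.42 with LAMZ at day 14. The LAMZ libraries were above the controls at each day, so the mRNA of Sp7 was higher relative to that of Runx2. The ratio of Runx2 to Cbfb was 0.432 ± 0.124 in day 7 control cells and 1.06 ± 0.0969 with LAMZ, and 0.546 ± 0.0312 and 0.954 ± 0.276 at day 14 (SD, n = 2 each). Ratios within a library do not depend on the scaling between libraries.

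Within the Runx genes, the share of Runx3 in the summed RPKM was 9.80% ± 0.503 in day 7 control cells, 13.8% ± 1.00 with LAMZ at day 7, 13.3% ± 0.929 in day 14 control cells and 26.4% ± 2.25 with LAMZ at day 14 (SD, n = 2 each). The 2 LAMZ libraries of day 14 had the highest shares of the 8, at 28.03% and 24.8%. Runx2 kept the greatest share in every library, from 56.2% to 70.2%, and the share of Runx1 was lower with LAMZ than in control cells at each day (16.4% against 22.1% at day 7 and 16.3% against 26.5% at day 14).

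Within the Dlx genes, the share of Dlx3 went with the day: at day 7 it was 33.1% without LAMZ and 34.0% with it, and at day 14 it was 48.6% and 54.4%. The ratio of Dlx5 to Dlx3 ranged from 1.47 to 1.91 over the 4 libraries of day 7 and from 0.700 to 0.881 over the 4 libraries of day 14, without overlap. Dlx6 had 9.94% ± 4.12 of the summed RPKM in day 7 control cells and 6.17% ± 0.0914 in day 14 LAMZ-treated cells.

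**Figure D3:**
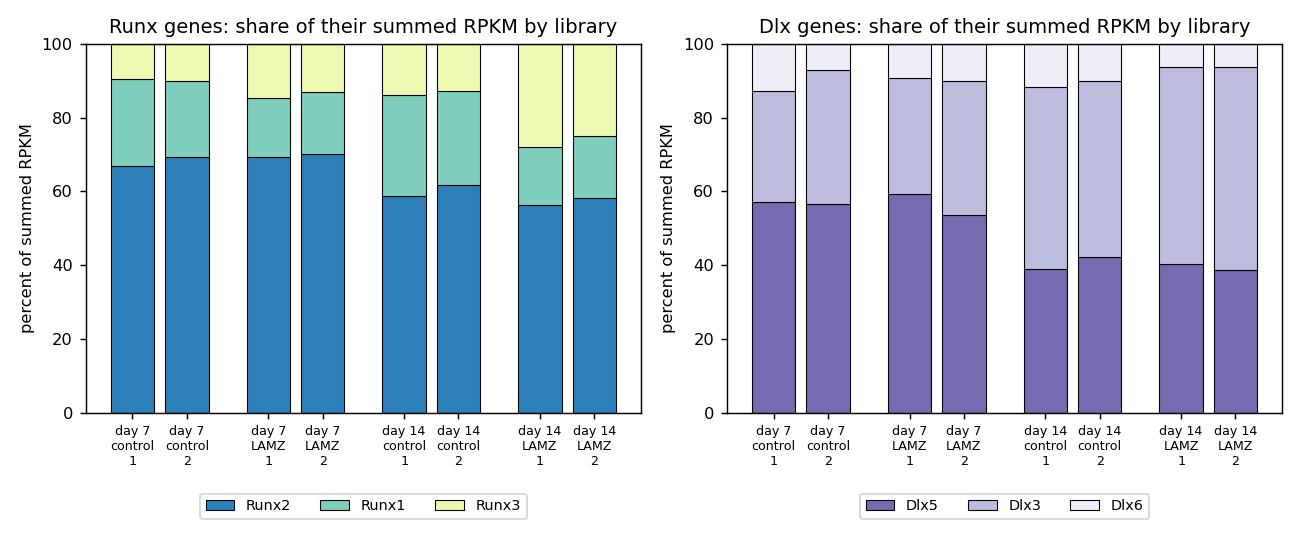
Share of each gene in the summed RPKM of the 3 Runx genes (left) and of the 3 Dlx genes (right), in percent, as stacked bars for each library. Runx3 has its highest shares, 28.03% and 24.8%, in day 14 LAMZ-treated cells, and Dlx3 has the greatest share of the Dlx genes in all libraries of day 14.

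Among bone genes known as targets of Runx2 or Sp7, about as many rose with LAMZ as did not pass the test, and none fell. Of 23 such genes, all tested, 11 rose at day 7 (4.35% of all genes did) and 13 at day 14 (6.96%), and the rest did not pass. Their median log2 difference was 0.78 at day 7 and 0.90 at day 14, against −0.08 and −0.15 over all genes. This list, like the other gene lists, was chosen with earlier results of these data known, so the shares beside it are description only. The list medians were 0.48 and 0.60 after rescaling to the same sum, and 0.20 and 0.33 after division by Gapdh, with 15 of the 23 genes above 0 at each day. Spp1 (osteopontin) rose from a mean of 144 to 1247 RPKM at day 7 (log2 difference 3.23, limma adjusted p = 0.00139) and from 313 to 2474 at day 14. Dmp1, a matrix protein of osteocytes, rose from 6.91 to 85.8 at day 7 (3.48, limma adjusted p = 5.49e-05) and from 19.5 to 154.7 at day 14 (2.92, limma adjusted p = 4.00e-05). Ibsp (bone sialoprotein) rose from 59.5 to 166 at day 7 and from 64.8 to 383 at day 14, and Alpl, the alkaline phosphatase needed for mineralization, from 50.4 to 194 and from 77.3 to 352. Bglap (osteocalcin), chosen after its values were seen, did not pass at either day with LAMZ (log2 differences 0.66 and −0.14, limma adjusted p = 0.395 and 0.857), and rose with time, from 46.6 to 357 RPKM in control cells (limma adjusted p = 0.0131), although reads can be split between it and its near-identical neighbour Bglap2. From day 7 to day 14, 4 of the 23 genes rose in control cells (2.46% of all genes) and 13 rose and 1 fell in LAMZ-treated cells (5.1% and 9.26%).

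Genes for partners, activators and inhibitors of Runx2 included some that rose and more that fell, as did all genes tested. Of 26, all tested, 2 rose and 4 fell with LAMZ at day 7 (4.35% of all genes rose and 8.49% fell). At day 14, 2 rose and 7 fell (6.96% and 16% of all genes). Their median log2 differences were −0.32 and −0.20, with 7 of the 26 above 0 at each day. At day 14 the median was −0.01 with median centring and 0.02 under quantile normalization, whereas after rescaling to the same sum the medians were −0.56 and −0.46 and after division by Gapdh −0.84 and −0.74. Twist1 and Twist2, which bind and inhibit Runx2, both fell: Twist1 from 28.8 to 13.6 at day 7 and from 24.0 to 10.9 at day 14 (log2 differences −1.02 and −1.06, limma adjusted p = 0.00572 and 0.00274), and Twist2 from 3.13 to 0.373 and from 1.93 to 0.291 (limma adjusted p = 0.0101 and 0.0247).

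**Figure D4:**
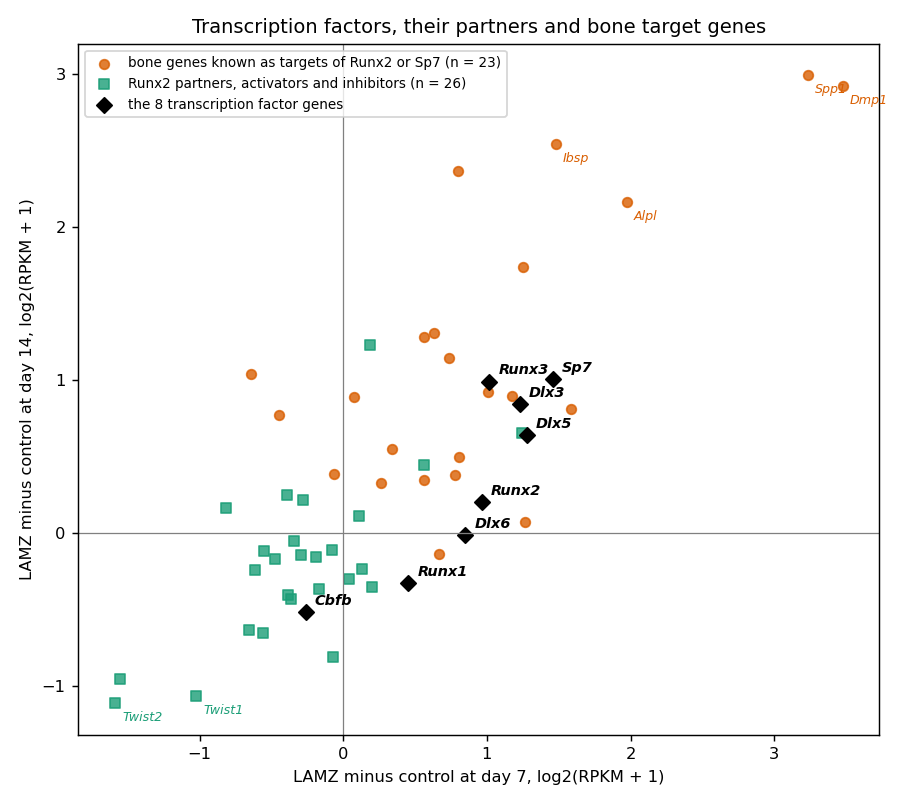
Difference between LAMZ and control in log2(RPKM + 1) at day 7 (horizontal axis) and at day 14 (vertical axis) for the 8 transcription factor genes (diamonds), 23 bone target genes (circles) and 26 genes for partners, activators and inhibitors of Runx2 (squares). Spp1 and Dmp1 lie at the upper right, and Twist1 and Twist2 at the lower left.

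The relatives of the 8 genes were at low levels or did not rise. The other Dlx genes and antisense RNAs, 6 matched by symbol and Dlx6os1, which the files split into 2 entries, were not among the genes tested, and their summed RPKM did not exceed 1.60 in any library. Group means reached 0.317 RPKM for Dlx2 and 0.419 for Dlx1as. Dlx6os1 is an antisense RNA that spans Dlx6 on the opposite strand and shares no exon base with it. The entry Dlx6os1_1 had 0.205 to 0.396 RPKM over the 8 libraries, and Dlx6os1_2 was listed at 0 in all 8. Of the other Sp factors, 3 of 8 were tested and Sp3, a ubiquitous Sp protein, fell at day 14 (9.42 to 6.46 RPKM, log2 difference −0.48, limma adjusted p = 0.0160).

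Some RNAs overlap the genes on the opposite strand, and whether reads were counted by strand is not stated. Runx2os1 shares 519 bases (5.87%) of the exons of Runx2 and had at most 5 reads in a library. Runx2os2 lies within Runx2 but shares no exon base with it and had 13 to 28 reads. It did not follow Runx2, with log2 differences of −0.10 and 0.06 with LAMZ at the 2 days (limma adjusted p = 0.889 and 0.917). It was chosen after its values were seen. Dlx6os2 shares 104 bases (4.38%) with Dlx6 and was listed at 0 in all 8 libraries, and Gm26626 shares 106 bases (0.881%) with Runx1 and had at most 4 reads.

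The genes whose pattern was most like that of Runx2 over the 8 libraries, by Pearson's r of log2(RPKM + 1), were Slc40a1, the iron exporter ferroportin (r = 0.993), Alkbh5, an RNA demethylase (0.984), and Ets2, an ETS family transcription factor (0.980). Slc40a1 had means of 4.27, 12.1, 4.996 and 6.15 RPKM in day 7 control, day 7 LAMZ, day 14 control and day 14 LAMZ. For Sp7 they were Adamts18, a secreted metalloproteinase (0.993), Pkm, a pyruvate kinase (0.993), and Farp2 (0.988). For Dlx5 they were Tcf7, a transcription factor of Wnt signaling (0.989), Fam46a (0.983) and P3h2, a collagen prolyl 3-hydroxylase (0.983). Tcf7 had means of 9.83, 27.5, 8.85 and 15.6 RPKM in the same order. All values of a pattern come from the same 8 libraries in 4 groups, and the nearest of all the genes tested will always have a high r, so these are descriptions.

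Markers of several other cell types also differed between LAMZ and control, some lower and some higher with LAMZ. Macrophage markers were lower with LAMZ for 14 of the 17 tested at day 7 (8.49% of all genes fell) and for 15 at day 14 (16%). In control cells 11 of them rose from day 7 to day 14 (2.46% of all genes). Lyz2 (lysozyme) went from 360 to 7.23 RPKM at day 7 and from 742 to 5.64 at day 14. Runx1 and Runx3, which macrophages can express, had higher values in control cells at day 14 than at day 7, as the macrophage markers had, and Runx3 was highest in the LAMZ libraries, where those markers were at 8.82 to 10.9 in sum. The part of these cells in the values of Runx1 and Runx3 was not tested. Lymphocyte markers (12 in the files, none among the genes tested) summed to at most 2.88 RPKM in any library, with Cd4 at 1.05 and Cd79a at 0.651 as means of the day 14 controls.

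Chondrocyte markers were higher with LAMZ for 7 of 10 at day 7 (4.35% of all genes rose). At day 14, 9 rose and 1 fell (6.96% and 16% of all genes). Their sum was 229 to 306 RPKM in control libraries and 563 to 661 in LAMZ libraries. Acan (aggrecan) rose from 5.62 to 51.3 at day 7 and from 6.50 to 52.6 at day 14, Col9a1 from 4.73 to 24.6 and from 3.83 to 16.5, and Matn1 from 0.211 to 6.46 and from 0.0465 to 7.08. Matn3 rose from 0.184 to 2.82 and from 0.154 to 1.72. The 1 that fell, Sox9, the master factor of cartilage, was chosen after its values were seen and went from 7.52 to 4.39 at day 14 (limma adjusted p = 0.0225).

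Adipocyte markers summed to 21.4 to 96.8 RPKM in control libraries, the highest in day 14 control replicate 2, and to 5.97 to 9.02 in LAMZ libraries. Of 4 tested, 1 fell at day 7 (8.49% of all genes fell) and 3 at day 14 (16%). Those of day 14 were Lpl (lipoprotein lipase), from 33.6 to 4.28, Fabp4, from 23.8 to 0.420, and Adipoq, from 7.06 to 0.0621. The day 14 controls differed widely for Fabp4 (SD 24.6) and Adipoq (SD 6.55), and less for Lpl (SD 2.38, n = 2 each). Tek, the only 1 of 7 endothelial markers tested, fell at both days, from 1.48 to 0.115 and from 1.42 to 0.283. Of 10 keratinocyte markers 2 were tested, and Cdsn (corneodesmosin) rose at day 14, from 1.51 to 58.8 RPKM. The 10 markers summed to 48.0 and 76.3 RPKM in the day 14 LAMZ libraries and to at most 4.24 in the other 6. Nearly all of this was Cdsn. The other 9 summed to 3.82 and 2.84 RPKM in the day 14 LAMZ libraries and to 0.909 to 2.49 in the other 6. Dlx3, known as a factor of epidermal differentiation, was also highest in day 14 LAMZ-treated cells, as was Runx3. At day 7 Dlx3 was higher with LAMZ, whereas Cdsn had means of 2.09 RPKM in control cells and 0.880 with LAMZ and did not pass. The part of these marker genes and their cell types in the levels of the 8 factors was not tested.

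**Figure D5:**
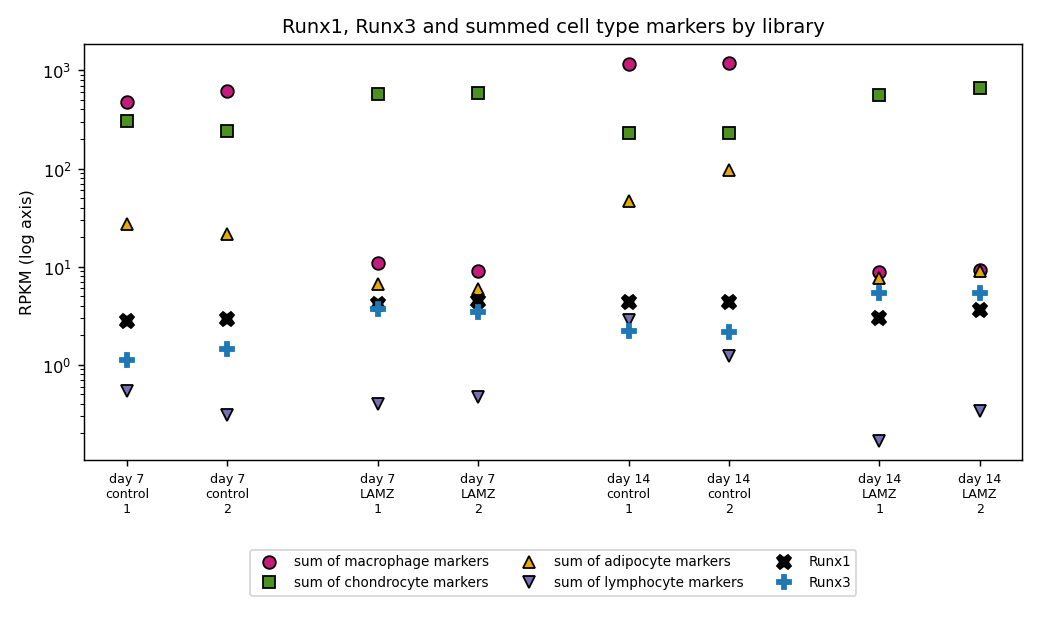
RPKM on a log axis (vertical) of Runx1 and Runx3 and of the summed macrophage, chondrocyte, adipocyte and lymphocyte markers in each library (horizontal axis). The macrophage sum is 472 to 1193 in the 4 control libraries and 8.82 to 10.9 in the 4 LAMZ libraries, whereas Runx1 and Runx3 stay between 1.11 and 5.36.

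Gapdh, the glycolytic enzyme that the study used to normalize qRT-PCR, was not even between the libraries. It ranged from 45.1 to 118 RPKM, with means at day 7 of 56.6 ± 16.4 without LAMZ and 87.0 ± 21.3 with it, and at day 14 of 71.9 ± 26.8 and 113.8 ± 5.68 (SD, n = 2 each). When each library was divided by its own Gapdh value, the limma adjusted p of the 8 genes ran from 0.162 to 0.940 at day 7, past the threshold for none, and at day 14 Cbfb alone passed, as lower (−1.18, limma adjusted p = 0.0414). Under that scaling, Runx2, Runx3, Sp7, Dlx3, Dlx5 and Dlx6 still had positive differences at day 7, from 0.39 to 0.86, and Runx1 turned to −0.037.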

How the data were processed

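RNA sequencing of 8 libraries was processed, 2 for each of 4 groups given by the sample labels (DMSO or LAMZ, day 7 or day 14). The authors sequenced on an Ion Proton, used CLC Genomics Workbench to assign reads and deposited 1 RPKM value for each gene symbol. The labels give the build mm10, and the program's version and its strand setting are not given in the sources used here. The header inside the file of day 7 LAMZ replicate 1 names its sample D7_V1_Rep1, and the sample label was followed. RPKM is scaled within each library only, and a low gene rests on few reads. Of 51826 entries, 4 whose symbols had turned into dates were dropped.

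Values were transformed to log2(RPKM + 1), which understates the change of low genes, and the 12514 genes that reached 1 RPKM in 2 or more libraries were fitted in limma 3.58.1 (R 4.3.3) as 4 group means with a mean-variance trend. Benjamini-Hochberg adjustment ran over all of them. Mapped reads were recovered with GENCODE M21 lengths as the number at which values of low genes (up to 5 reads) become whole within 0.05, which 94.9% to 97.0% did. The scripts were tested on simulated data.

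The members and gene lists were chosen with earlier results of these data known. The genes named are the 8 factors, up to 4 genes of each list with the largest mean difference among those that passed at either day (else the 2 with the highest mean RPKM), Gapdh, and the 3 genes most like each of Runx2, Sp7 and Dlx5. Other pseudocounts, filters, scalings, a replicate block, fits without the trend or on the 4 libraries compared, and fits without each library were tried. A planned comparison of protein sequences was not done. Single values of 2 genes that this rule names are not reported here.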

Additional observations from a re-analysis of the deposited data

Results flagged for a closer look

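Runx1 was singled out because its LAMZ libraries stood on opposite sides of their controls at the 2 days. At day 7 they had 4.12 and 4.43 RPKM against 2.78 and 2.93 in control cells, and at day 14 they had 3.001 and 3.64 against 4.38 and 4.41. Of all genes tested, 20.4% had both LAMZ libraries above both controls at day 7, and 44.2% had both below at day 14. A change of the LAMZ effect between the days had an unadjusted p under 0.05 (limma) in 2061 of the 12514 genes tested. For Runx1, the LAMZ difference at day 14 minus that at day 7 was −0.78 on the log2(RPKM + 1) scale (SE 0.18, 95% interval −1.18 to −0.37). This difference did not pass the test over all genes (limma adjusted p = 0.0990, unadjusted p = 0.00227), and over the alternatives it ran from −0.97 to −0.42 with adjusted p from 0.0881 to 1.00. The summed macrophage markers in the same libraries were 472 and 617 RPKM in the day 7 controls, 1162 and 1193 in the day 14 controls and 8.82 to 10.9 in the LAMZ libraries. Their part in the values of Runx1 was not tested.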

How the results depend on the processing

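With 2 libraries in each group and from 6 reads upward behind Dlx6, small differences were not detectable at this depth. Of 878 values of single genes under the alternatives, 751 kept their direction and their side of the threshold, 93 fell short of it, 10 passed it and 24 turned direction. Same-numbered libraries shared only a number (correlation of deviations −0.0342 to 0.0776), and with the replicate block the number of the 8 genes called was unchanged except over time in LAMZ-treated cells, where it was 1 in place of 3.

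The genes called with LAMZ numbered 6 at day 7, 4 at day 14 and 7 for the mean of both days. Dividing by Gapdh left 0, 1 and 1. Leaving out 1 library gave 5 to 6, 1 to 4 and 5 to 6, the lowest at day 14 without day 14 LAMZ replicate 2 (1) and day 14 control replicate 1 (2). Over time in control cells the count was 1, and it was 0 with a pseudocount of 0.1, no filter, Gapdh, no mean-variance trend or only the 4 libraries compared, 3 after rescaling to the same sum, and 0 to 1 without 1 library. Over time in LAMZ-treated cells it was 3, then 1 with a pseudocount of 0.1, the same sum, median centring, quantile normalization or only the 4 libraries compared, 0 with no filter or Gapdh, and 0 to 3 without 1 library (0 without any 1 of the 4 LAMZ libraries). A filter on a mean RPKM of 5 kept 5 of the 8 genes.

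The values that turned direction came from calls that had not passed, except that of Runx2 as a mean of both days (−0.031 with Gapdh). With Gapdh, Runx1 turned to −0.037 at day 7 and −0.46 as a mean of both days, and Runx2 to −0.45 at day 14. With the same sum, Runx2 turned to −0.13 at day 14 and Runx1 to −0.21 as a mean of both days. Dlx6 at day 14 turned to 0.18 with median centring and 0.22 with quantile normalization, and ran from −0.086 to 0.061 without 1 library. Over time in control cells, Gapdh turned Runx2 to −0.13 and Sp7 to −0.14, the same sum turned Cbfb to 0.065 and Dlx5 to 0.22, median centring turned Dlx5 to 0.024 and quantile normalization turned it to 0.038, and without 1 library Sp7 ran from −0.11 to 0.44 and Dlx5 from −0.17 to 0.17. The change of the LAMZ effect on Runx3 turned to 0.070 with a pseudocount of 5, 0.051 with median centring and 0.073 with quantile normalization, and ran from −0.13 to 0.078 without 1 library. The causes were not tested.

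Over all genes, the number called with LAMZ was 1607 at day 7 and 2878 at day 14. It was 3592 and 5796 after rescaling to the same sum, 951 at day 7 with no filter, 624 at day 7 with only the 4 libraries compared and 1795 at day 14 with a mean RPKM of at least 5, and without 1 library it ran from 527 to 1383 and from 1512 to 3087. Of these genes, 33.9% and 30.3% were higher with LAMZ, against 8.69% and 8.16% with the same sum, 53.5% and 56.3% with median centring, 45.7% and 47.9% with quantile normalization and 6.04% and 3.35% with Gapdh. For the mean of both days it was 3686, and 7207 with the same sum, 6386 with Gapdh and 2221 with a mean RPKM of at least 5. Over time it was 608 in control cells, and 1135 with the same sum, 220 with Gapdh, 203 with no filter and 0 with only the 4 libraries compared (2184 at an unadjusted p under 0.05). It was 1797 in LAMZ-treated cells, and 396 with Gapdh and 1091 with no filter. For the change of the LAMZ effect it was 78, and from 0 with no filter (2931 at an unadjusted p under 0.05) to 166 with a pseudocount of 5.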
